A study of Mus musculus with 6 samples.

Results

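CTCF occupancy in the windows that hold the 4 Hox clusters was compared between differentiating mouse erythroblasts and clones of the same line without detectable BRD2. The members were chosen by position, as the CTCF peaks that overlap 4 mm9 windows by at least 1 bp. The windows run from 52.05 to 52.30 Mb of chromosome 6 (Hoxa), from 96.00 to 96.30 Mb of chromosome 11 (Hoxb), from 102.70 to 102.92 Mb of chromosome 15 (Hoxc) and from 74.40 to 74.70 Mb of chromosome 2 (Hoxd). Overlapping peaks of the 3 lists were joined into sites, which gave 24 sites of 48367 in all: 3 in the Hoxa window, 11 in Hoxb, 4 in Hoxc and 6 in Hoxd. They comprise 23 of the 40271 peaks of the wild-type list, 21 of the 29769 of clone D and 21 of the 32308 of clone C8.

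The cells were G1E-ER4, an erythroblast line that lacks GATA1 and expresses GATA1 fused to the hormone-binding part of the estrogen receptor. All libraries came from cells given 100 nM estradiol for 24 hours, a treatment that activates the fused GATA1 and sets off erythroid differentiation. The groups were wild-type G1E-ER4 (1 CTCF ChIP-seq library) and BRD2-null G1E-ER4 (2 CTCF libraries, 1 from each of the CRISPR/Cas9-edited sub-lines D and C8). Each sub-line is 1 clone, so loss of BRD2 and clonal origin cannot be told apart within a clone, and with 1 wild-type library no difference between the genotypes can be tested. The 3 input libraries were not used here, and the depth of the libraries is unknown.

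Hox genes encode homeodomain transcription factors that set the identity of body segments along the head-to-tail axis. In mammals they lie in 4 clusters, and within a cluster the genes are used roughly in the order in which they lie along the chromosome, the 3′ genes towards the head and the 5′ genes towards the tail. CTCF, a DNA-binding protein of insulators and of loop and domain borders, binds through its zinc fingers, and its sites inside Hox clusters are known to part active genes from neighbours under Polycomb repression. Some Hox genes are also known in blood: Hoxa9 and Hoxa10 act in blood progenitors, and Hoxb4 promotes the renewal of blood stem cells. BRD2, of the BET family, binds acetylated histone tails through its bromodomains.

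All 38 Hox genes considered matched the RefSeq table of GRCm38.p6 by symbol: 10 in Hoxa, 10 in Hoxb, 9 in Hoxc and 9 in Hoxd. Along its chromosome the Hoxa cluster begins with the 3′ gene Hoxa2 and ends with the 5′ gene Hoxa13. The other 3 clusters run the opposite way, from Hoxb13 to Hoxb1, from Hoxc13 to Hoxc4 and from Hoxd13 to Hoxd1. Positions of the genes on mm9 were not used here, so the sites are given by position and order within a window, and not by the nearest gene. The windows are not gene boundaries, and some of their sites may lie outside the Hox genes.

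Promoter sequences show what sequence context can be read for these genes. RefSeq promoters on GRCm38.p6, from 250 bases before to 50 after a gene start, were found for 22 of the 38 genes (24 promoters). By cluster these were 9 of 10 genes in Hoxa, 3 of 10 in Hoxb, 1 of 9 in Hoxc and 9 of 9 in Hoxd. Most Hoxb and Hoxc promoters were therefore not searched. The 24 promoters were searched on both strands for 2 spellings of the core of the CTCF motif, AGGGGGC and AGGTGGC, which differ in 1 letter and so never match at the same place. The first was found in 2 of the 24 promoters (8.33%), those of Hoxd13 and Hoxa10, against 10.6% of all 32851 promoters. The second was found in 1 (4.17%), that of Hoxa11, against 6.15%. The shares in the 24 Hox promoters, mostly of Hoxa and Hoxd, are near those of promoters at large. Other spellings were tried on the same sequences before these were chosen. A match describes the letters only and is not a CTCF site, and whether an mm9 peak covers these promoters was not analysed here. Hoxd13, Hoxa10 and Hoxa11 are 5′ genes of their clusters that act in limb or urogenital development. Their matches are shown in capitals with up to 30 bases on each side, 5′ to 3′ on the strand of the gene (for Hoxd13 the capitals are the match read on the opposite strand, and a second match lies in the same stretch). The stretches lie on GRCm38.p6 at chr2:74668044-74668110 (Hoxd13, plus strand), chr6:52240911-52240977 (Hoxa10, minus strand) and chr6:52245954-52246020 (Hoxa11, minus strand), coordinates that cannot be set beside the mm9 positions of the peaks.
Hoxd13 promoter: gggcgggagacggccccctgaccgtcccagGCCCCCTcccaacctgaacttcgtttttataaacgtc
Hoxa10 promoter: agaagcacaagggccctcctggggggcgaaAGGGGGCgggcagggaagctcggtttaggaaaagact
Hoxa11 promoter: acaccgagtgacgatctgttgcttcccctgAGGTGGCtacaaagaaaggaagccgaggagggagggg

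Each site is described by the authors' fold enrichment of its peak and by the peak's rank within its own list, 1 being the strongest. The percentile is the same rank on a scale on which 100 is the strongest peak of a list. Enrichments of different lists are set side by side without a comparison, because their whole-list medians differ (22.7 in wild type, 17.4 in clone D and 21.5 in clone C8).

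The Hoxa window held the fewest sites, and its middle site stood far lower in clone C8 than in the other lists. Hoxa site 1 (52072658 to 52073005) was called in wild type and clone C8 and not in clone D. Where a site is missing from a list, the share of all peaks of like strength found in the other list is given. For this, 10 strength classes of about equal size were made by enrichment within each list (3521 to 4704 peaks in wild type). Its enrichment was 10.7 in wild type (rank 37443) and 18.1 in clone C8 (rank 18763). The wild-type call was close to the weakest of its list, at percentile 6.77 with a −log10 p of 5.32 and a false discovery rate of 0.637. Of all wild-type peaks in the same strength class, 7.93% were found in clone D. The clone C8 call was stronger, at percentile 41.1, and of all clone C8 peaks in its strength class 90.5% were found in clone D. Hoxa site 2 (52171573 to 52172109) had enrichments of 51.5 in wild type, 25.4 in clone D and 12.9 in clone C8, at ranks 6270, 8673 and 24369. It was thus in the upper part of the wild-type and clone D lists (percentiles 84.0 and 70.9) and in the lower part of the clone C8 list (23.2). Hoxa site 3 (52206735 to 52207371) went the other way, with enrichments of 19.8, 17.7 and 29.7 at ranks 22021, 14662 and 10512. Sites 1 and 2 were 99.0 kb apart and sites 2 and 3 35.2 kb.

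In the Hoxb window, 10 of 11 sites were called in all 3 lists, and sites 1 to 9 lay together on the low-coordinate side of the window. Hoxb site 1 (96006833 to 96007425) was the second strongest of the window in wild type, with enrichments of 59.0, 13.5 and 26.3 in wild type, clone D and clone C8 and ranks of 4559, 19102 and 12673. It stood at percentile 88.7 of the wild-type list, 35.8 of clone D and 60.8 of clone C8. Site 2 (96018350 to 96018999) followed after 11.5 kb and was at rank 15084 in wild type and 17238 in clone D, but at 29649 in clone C8, where its enrichment was 10.2. Site 3 (96059738 to 96060327) was of middle strength in each list, with ranks of 12960, 15516 and 14396. Of these 3 sites, site 1 had the best rank in the wild-type and clone C8 lists and site 3 in the clone D list.

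Hoxb site 4 (96084951 to 96085682) was the strongest Hoxb site in clone D and, with site 8, one of the strongest pair in clone C8. Its enrichments were 43.6 in wild type, 34.8 in clone D and 48.6 in clone C8, at ranks 8994, 4000 and 3244. Sites 5 (96096195 to 96096768) and 6 (96101432 to 96102053) lay 5.26 kb apart, the closest pair of the window, and were of like strength. Site 5 had ranks of 11929, 12952 and 14385 in the 3 lists. Site 6 had ranks of 11440, 13861 and 11566. Hoxb site 7 (96122899 to 96123294) was the one Hoxb site not called in all lists: it had an enrichment of 26.8 in wild type (rank 17309, percentile 57.0), was among the weakest peaks of clone C8 with 8.42 (rank 31473, percentile 2.53), and was not called in clone D. Of all wild-type peaks in the same strength class, 83.5% were found in clone D, and of the corresponding clone C8 peaks 34.3%.

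Hoxb site 8 (96139944 to 96140617) was strong in all lists, with enrichments of 53.2, 27.6 and 48.8 at ranks 6013, 7281 and 3219. Hoxb site 9 (96155814 to 96156212) stood lower in wild type than in clone C8: its enrichments were 17.9, 15.6 and 34.6 and its ranks 24053, 16923 and 8128. After site 9, no list held a peak for 117 kb, the longest stretch without a peak between sites of any window, and 14.8% of the gaps in the whole wild-type list were at least as long. Hoxb site 10 (96273083 to 96273680), on the far side of that stretch, was weak in each list, at percentiles 27.8, 20.9 and 11.8. Hoxb site 11 (96299942 to 96300572) straddled the end of the window and was the strongest Hoxb site in wild type. Its enrichments were 61.5, 25.8 and 26.7 at ranks 3867, 8355 and 12550, and the clone C8 peak of this site lay just past the window's end, so it is counted in the site but not among the 21 clone C8 peaks.

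In the Hoxc window, 3 sites of the upper part of the wild-type list and 1 weak site lay within 47.7 kb. Hoxc site 1 (102796695 to 102797296) had enrichments of 78.2 in wild type, 31.3 in clone D and 56.5 in clone C8, at ranks 1485, 5351 and 1766. It was the strongest Hox site of clone C8, at percentile 94.5. Hoxc site 2 (102801203 to 102801463), 4.34 kb further on, was the only Hox site called in wild type alone. It was weak, with an enrichment of 13.8 (rank 32370), a −log10 p of 6.75 and a false discovery rate of 0.310. In the same strength class of the wild-type list, 14.1% of all peaks were found in clone D and 16.2% in clone C8. Hoxc site 3 (102817764 to 102818248) had enrichments of 68.3, 39.9 and 39.1 at ranks 2689, 2539 and 6048, and so stayed in the upper 20% of each list. Hoxc site 4 (102843778 to 102844417) was of middle to upper strength, with enrichments of 39.5, 21.7 and 20.9 at ranks 11039, 11155 and 16455. No peak of any list lay in the first 96.7 kb or in the last 75.6 kb of the window.

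The Hoxd window held the strongest of the 24 sites in wild type and clone D, Hoxd site 5 (74540108 to 74540824). Its enrichments were 89.2 in wild type, 51.3 in clone D and 50.4 in clone C8, at ranks 779, 748 and 2757, which are percentiles 98.1, 97.5 and 91.3. The other 5 Hoxd sites were weaker in each list that held them, and 3 of them were called in all lists. Hoxd site 1 (74473459 to 74473934) was weak in each list, with ranks of 30104, 20432 and 26294. Hoxd site 2 (74501623 to 74502105) was the only Hox site that both clones had and wild type lacked, with enrichments of 14.8 in clone D (rank 17450) and 13.4 in clone C8 (rank 24023). Of all clone D peaks in the same strength class 91.6% were found in wild type, and of the corresponding clone C8 peaks 63.4%.

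Hoxd site 3 (74524196 to 74524766) lay near the median of each list, at percentiles 52.1, 48.6 and 49.2 and ranks 18872, 15291 and 16413. Hoxd site 4 (74532089 to 74532545) was called in wild type with an enrichment of 17.8 (rank 24132) and in clone D with 6.44 (rank 29433, percentile 1.12). It was not called in clone C8, where 44.5% of all wild-type peaks of that strength class were found, and 51.9% of the corresponding clone D peaks. Site 6 (74553702 to 74554285) stood at percentiles 67.1, 66.9 and 59.0 and had ranks of 13233, 9856 and 13234. The 6 sites lay within 80.8 kb, with no peak in the first 73.5 kb or in the last 146 kb of the window.

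**Figure D1:**
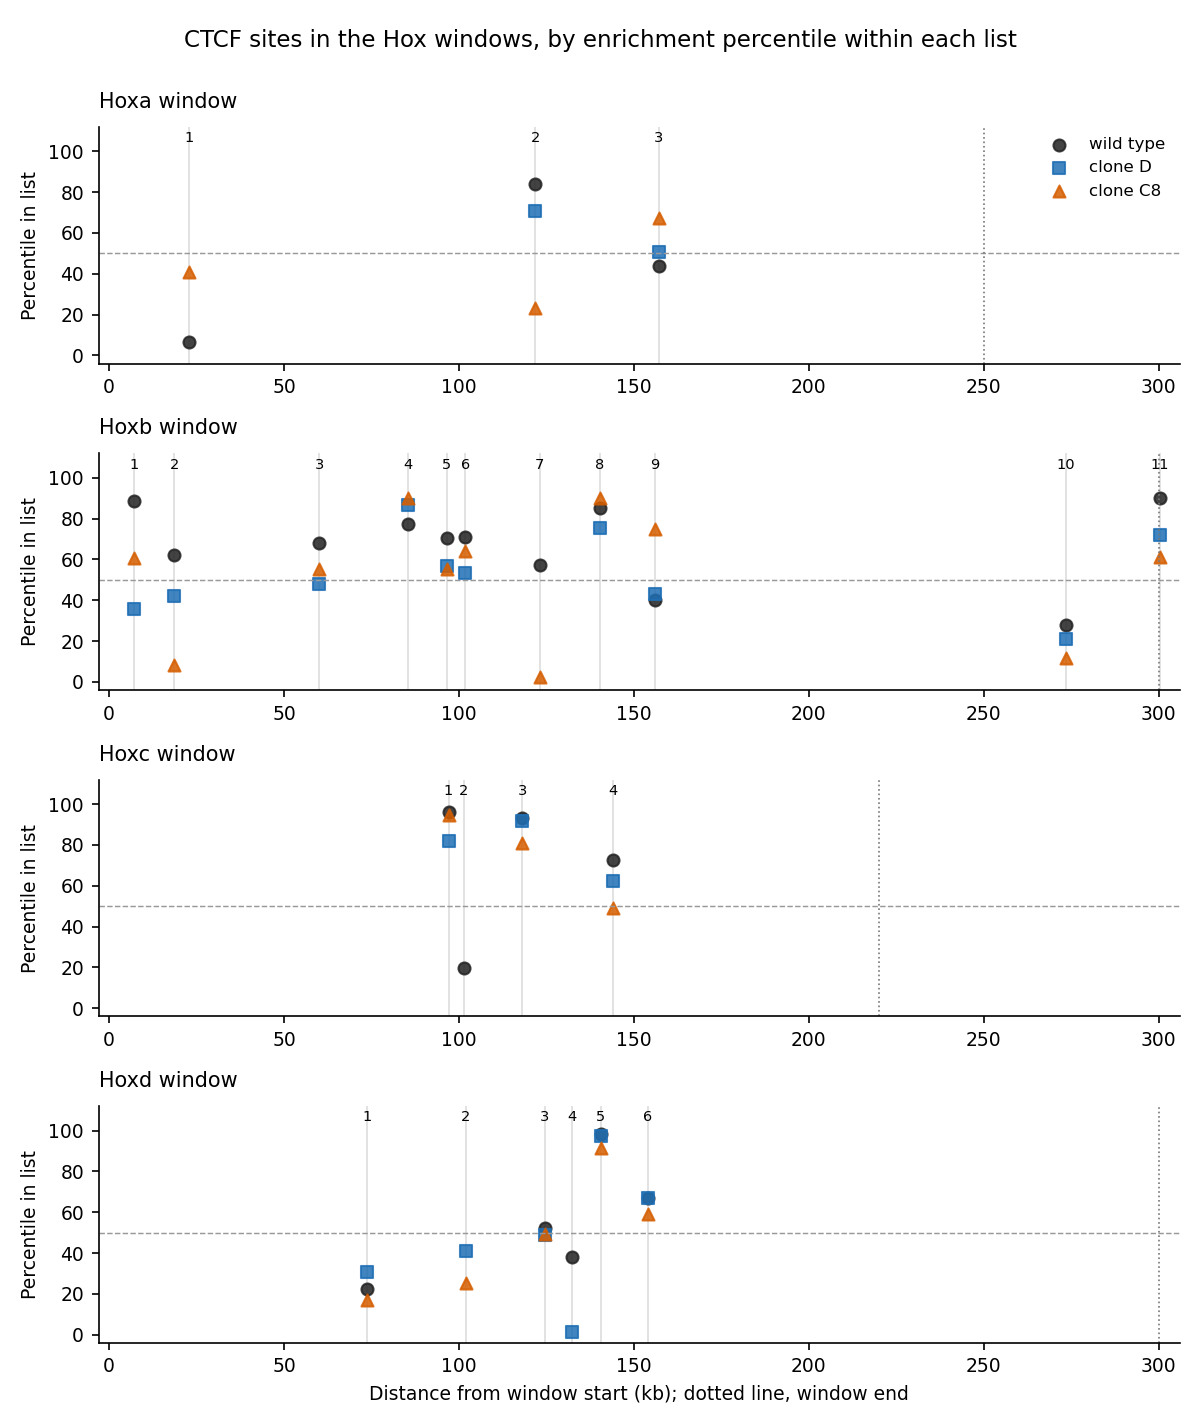
Every CTCF site of the 4 Hox windows, placed by its distance from the window's start in kb (x axis) and by the enrichment percentile of its peak within the wild-type, clone D and clone C8 lists (y axis, 100 is the strongest peak, dashed line at 50). Numbers at the top are the site numbers, a missing symbol is a peak that was not called, and Hoxd site 5 is at percentiles of 91.3 to 98.1 in the 3 lists.

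Hox sites were mostly called in all 3 lists. Of the 24 sites, 19 (79.2%) were, against 49.5% of all 48367 regions and 114 of 178 regions (64.0%) in the 500 kb on each side of the windows. The 5 others were Hoxa site 1 and Hoxb site 7 (not in clone D), Hoxc site 2 (wild type only), Hoxd site 2 (both clones only) and Hoxd site 4 (not in clone C8). None of the 24 was called in clone D alone or in clone C8 alone, against 2274 and 3839 of all 48367 regions. The 1 site in wild type alone and the 1 in both clones only stand against 12654 and 2167 of all regions. With 24 sites, no result about the Hox windows is read from these counts. Each cluster thus had at least 1 site that was not in all lists.

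Of the 23 wild-type Hox peaks, 20 were overlapped in clone D (87.0%, exact Clopper-Pearson 95% interval 66.4 to 97.2), against 63.1% of the whole wild-type list. Clone C8 overlapped 21 (91.3%, 71.96 to 98.93), against 65.3%, and both clones overlapped 19 (82.6%, 61.2 to 95.1), against 59.8%. The 2 comparisons share the wild-type list. In the flanks, 114 of 158 wild-type peaks were overlapped in both clones (72.2%, 64.5 to 79.0), and this interval overlaps that of the windows. From the clones' side, 20 of 21 clone D Hox peaks (95.2%, 76.2 to 99.9) and 20 of 21 clone C8 Hox peaks were found in wild type, against 85.1% and 81.4% of the whole lists. Clone C8 overlapped 20 of 21 clone D Hox peaks while 19 of 21 clone C8 Hox peaks were found in clone D, against 87.9% and 81.3%. In both other lists, 19 of 21 clone D Hox peaks were found, against 80.6%, and 18 of 21 clone C8 Hox peaks, against 74.5%. These intervals cover counting error only, and peaks of 1 window are not replicates.

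Strength moves with these shares, and its part in them was not tested. In wild type, 16 of 23 Hox peaks (69.6%) lay above the list's median enrichment, which 50% of the list does, and in each clone 12 of 21 did (57.1%). A false discovery rate of at most 0.05 was given to 16 of 23 wild-type Hox peaks (69.6%), against 52.7% of the whole list. In clone D it was 21 of 21, against 94.8%, and in clone C8 19 of 21, against 85.4%. The wild-type list thus holds a larger share of weak calls than the clone lists. The median percentile of the Hox peaks was 67.8 in wild type, 53.4 in clone D and 55.5 in clone C8. In the flanks it was 63.1, 57.1 and 58.6. These medians come from lists of different length, and with equal lengths by enrichment they were 60.3, 53.4 and 53.6. With the full lists ranked by −log10 p they were 60.7, 52.8 and 58.3, so no difference between the lists is read from them. The Hoxc peaks were the strongest by this measure, with median percentiles of 82.9, 82.0 and 81.2, and the wild-type medians of the other clusters were 70.4 in Hoxb, 52.1 in Hoxd and 43.8 in Hoxa.

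**Figure D2:**
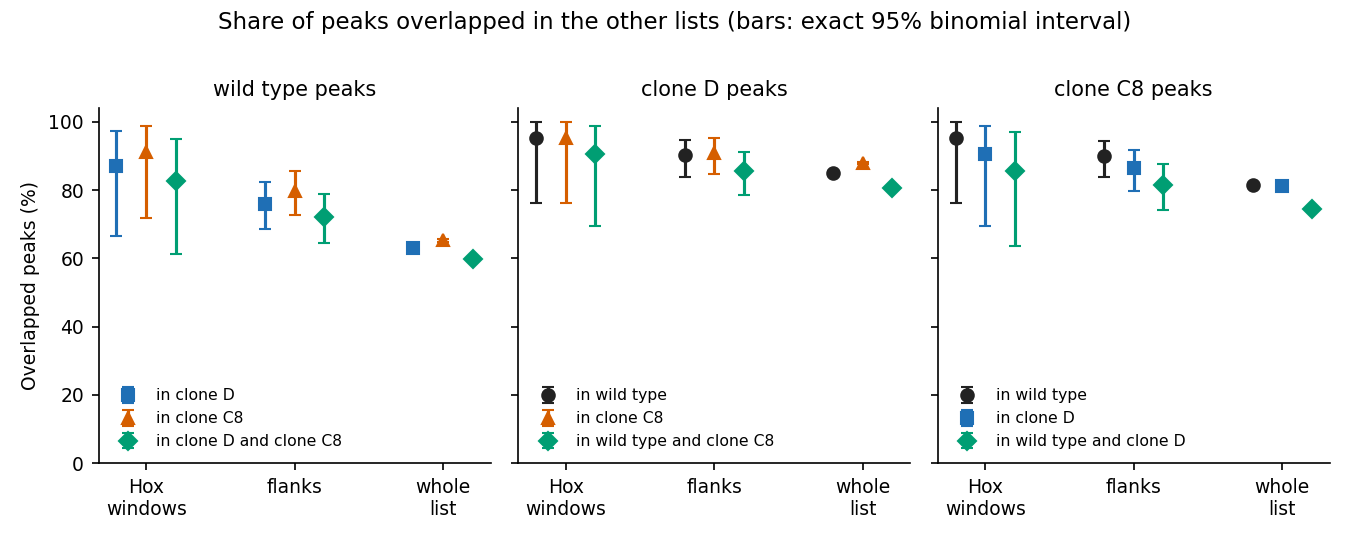
Share of the peaks of each list (panels) that overlapped a peak of the other lists by at least 1 bp (y axis, percent), for the Hox windows, their 500 kb flanks and the whole list, with exact 95% binomial intervals as bars. For wild-type peaks found in both clones the shares are 82.6% in the windows, 72.2% in the flanks and 59.8% in the whole list, and the intervals of the windows are wide because they hold 21 to 23 peaks.

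The clusters differed in how their density compared with that of their flanks. The Hoxc window had 18.2 wild-type peaks per Mb against 71 per Mb in its flanks. In clone D it had 13.6 per Mb against 52, and in clone C8 13.6 against 61. The Hoxc window was thus sparse beside its flanks in each list, and both flanks were dense, with 68 and 74 wild-type peaks per Mb to the left and the right. The Hoxb window had the most peaks of the 4, at 36.7 per Mb in wild type and 33.3 in each clone, yet fewer than its flanks at 59, 57 and 57. The Hoxa window had 12, 8 and 12 peaks per Mb, and its flanks 17, 16 and 15.

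Hoxd was the only cluster whose window was denser than its 500 kb flanks: 16.7 peaks per Mb in wild type, 20 in clone D and 16.7 in clone C8, against 11, 8 and 8. This order depended on the width of the flanks. With 1 Mb on each side, the Hoxd flanks held 20 peaks per Mb in wild type, 14 in clone D and 19 in clone C8, so that the window was denser in clone D alone. Beside the means over the stretch of each chromosome that holds peaks, the wild-type density of the windows was 12 against 14.9 per Mb on chromosome 6 (Hoxa), 36.7 against 24.0 on chromosome 11 (Hoxb), 18.2 against 15.3 on chromosome 15 (Hoxc) and 16.7 against 17.8 on chromosome 2 (Hoxd). In wild type the Hoxb and Hoxc windows lay above their chromosomes' means, and their flanks lay further above. The order turned for Hoxd in the clones, where the window had 20 against 13.2 per Mb (D) and 16.7 against 14.7 (C8), and for Hoxa in clone C8, with 12 against 11.5.

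**Figure D3:**
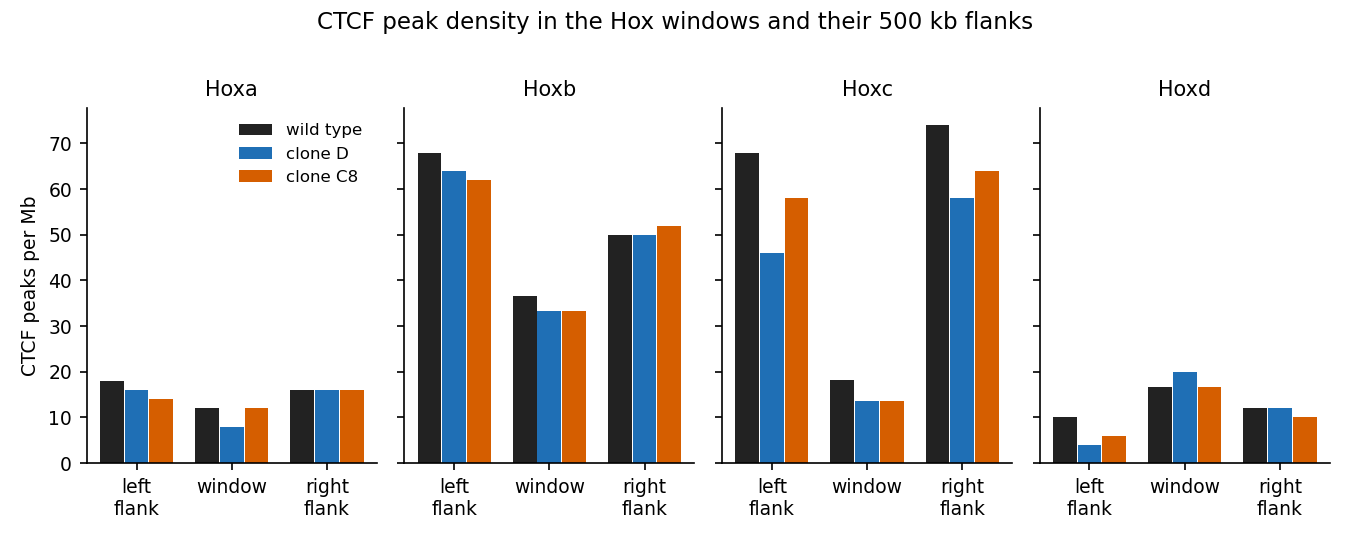
CTCF peaks per Mb (y axis) in the left 500 kb flank, the window and the right 500 kb flank of each Hox cluster, with a bar for each list. The Hoxc window stands at 13.6 to 18.2 peaks per Mb between flanks of 46 to 74, while the Hoxd window stands at 16.7 to 20 between flanks of 4 to 12.

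Spacing differed between windows and flanks in the same direction as density. The median distance between neighbouring peaks inside the windows was 17.1 kb in wild type (19 gaps), 22.6 kb in clone D and 21.4 kb in clone C8 (17 gaps each). In the flanks it was 8.56, 10.7 and 10.04 kb, and over the whole lists 24.9, 26.2 and 25.2 kb. By these medians, neighbouring Hox peaks lay farther apart than peaks of the flanks. The wild-type and clone D peaks of Hoxb site 11, which straddle the window's end, were counted in the window and also in these pooled flank medians. They were left out of the flank medians of the single clusters below. Only gaps between neighbouring peaks of the same window or flank were counted, so the peak-free ends of the windows were left out. The whole lists have no such cut, so the shorter median of the windows is not read as closer spacing. In wild type, 10 of the 19 gaps lay in Hoxb. In wild type the median gap was 67.1 kb in Hoxa, 19.3 kb in Hoxb, 16.6 kb in Hoxc and 10.8 kb in Hoxd. Hoxd was the exception to the order of windows and flanks, with 90.9 kb in its flanks, while those of Hoxa had 39.3 kb, those of Hoxb 6.77 kb and those of Hoxc 6.97 kb.

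The strongest wild-type site of the Hoxc flanks was stronger than any Hox site. It lay 198 kb to the left of the window (102501397 to 102501852), with an enrichment of 126.9 and rank 113 in wild type, 593 in clone D and 77 in clone C8. On the right, the strongest Hoxc flank site (103080500 to 103081006) was at rank 220 in wild type, 3876 in clone D and 303 in clone C8. The strongest Hoxb flank sites were at ranks 467 (left, 95737607 to 95738028) and 828 (right, 96728464 to 96728790) of the wild-type list, both above every site of the Hoxb window. Beside Hoxd the strongest site on the right (74893252 to 74893714) had an enrichment of 89.21, next to 89.18 at Hoxd site 5, and the strongest on the left (74138185 to 74138618) had 41.6. Beside Hoxa they were at 51.54 (left, 51948372 to 51948814), the same value as at Hoxa site 2, and 57.5 (right, 52674560 to 52675253). The left Hoxa flank site was also lower in the clone lists, at rank 6270 in wild type, 12664 in clone D and 19936 in clone C8. All 8 of these sites were called in all 3 lists.

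The edges of the windows fell in stretches without peaks, except at Hoxb and on the right of Hoxc. The site nearest outside the Hoxb window on the left (95994643 to 95995279) was 4.72 kb from the edge, with enrichments of 48.6, 18.2 and 31.8, and Hoxb site 1 lay 6.83 kb inside. To the right of the Hoxc window, the next site (102922832 to 102923413) was 2.83 kb outside, with enrichments of 15.0, 8.78 and 12.4. At the other edges the nearest outside site was at least 21.6 kb away.

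The standing of the Hox sites in the clones was compared with that in wild type over the same regions. All 23933 regions called in the 3 lists were ranked within each list by the highest enrichment of their peaks, so that the ranked sets have the same length, and a site was counted as lower or higher where it moved by at least 10 percentile points. Of the 19 Hox sites called in all lists, 4 were lower in clone D than in wild type and 6 were higher, against 30.4% and 30.6% of all such regions. In clone C8, 6 were lower and 4 were higher, against 29.7% and 30.1%. The shares of Hox sites that moved were thus near those of regions at large in both directions. The median difference was −0.616 (clone D) and −1.64 (clone C8) points, against 0.299 and 0.0689 over all regions. Both comparisons use the same wild-type library.

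Single Hox sites moved far, in part in 1 clone only. Hoxb site 1 stood at percentile 81.0 in wild type, 23.5 in clone D and 47.6 in clone C8, differences from wild type of −57.5 and −33.4 points. Hoxa site 2 stood at 73.3, 63.8 and 9.07, differences from wild type of −9.41 (D) and −64.2 (C8) points. Ranked by −log10 p they were 8.69 and −55.9, so the direction in clone D turned. At Hoxb site 2 they were −7.98 (D) and −35.4 (C8) points. The clone C8 calls of Hoxa site 2 and Hoxb site 2 had a −log10 p of only 7.452 and 5.985. Their false discovery rates were 0.0273 and 0.0808. The calls of Hoxb site 1 had a −log10 p of 15.0 in clone D and 24.9 in clone C8. Hoxb site 11 was lower in both clones, at 83.5 in wild type, 65.2 in clone D and 48.1 in clone C8. Ranked by −log10 p instead, Hoxb site 11 differed by −12.8 and −13.8 points. The 5th percentile of the differences over all such regions was −38.6 (D) and −37.2 (C8) points, so Hoxb site 1 in clone D and Hoxa site 2 in clone C8 were among the 5% that fell most.

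Other sites stood higher in the clones. Hoxb site 9 was at percentile 12.0 in wild type, 31.1 in clone D and 66.1 in clone C8. Hoxa site 3 was at 15.1, 39.7 and 55.9, and Hoxb site 4 at 61.9, 83.3 and 86.5. The wild-type calls of Hoxb site 9 and Hoxa site 3 had a −log10 p below 10 (8.83 and 8.93). Their false discovery rates were 0.12 and 0.116. The wild-type call of Hoxb site 4 had a −log10 p of 27.1. The 95th percentile of the differences over all such regions was 37.9 (D) and 36.25 (C8) points. In clone C8, Hoxb site 9 (54.2) and Hoxa site 3 (40.8) passed it, while the highest Hox difference in clone D was 24.5. In Hoxd, 3 of 4 sites were higher in clone D (sites 1, 3 and 6, by 15.3, 13.6 and 13.6 points) and none of the 4 moved by 10 points or more in clone C8. In wild type, the −log10 p of Hoxd sites 1, 3 and 6 was 5.979, 11.2 and 17.0, and the false discovery rate of Hoxd site 1 was 0.457. In Hoxc, site 1 was lower in clone D (a difference of −16.2 points) and sites 3 and 4 were lower in clone C8 (−14.1 and −21.3), with no site higher in either clone. Ranked by −log10 p, Hoxc site 1 in clone D (−4.94) and Hoxc site 4 in clone C8 (−5.07) stayed within 10 points, and Hoxc site 1 was higher in clone C8 (10.2). By that ranking Hoxd site 3 in clone D also stayed within 10 points (4.83), which leaves 2 of 4 Hoxd sites higher there. By enrichment, Hoxb site 3 was lower in clone D (−10.09) and Hoxb site 8 higher in clone C8 (11.58). By −log10 p both stayed within 10 points (−7.20 and 9.61). Some Hoxb sites moved that far by −log10 p only. In clone D these were site 8 (−13.7) and site 10 (10.35). In clone C8 they were sites 3 (−10.08), 5 (−11.25) and 6 (17.7). Hoxd site 5 was near the top of each list, at 96.8 in wild type, 96.9 in clone D and 88.2 in clone C8.

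The clones differed from each other about as often as from wild type. Between clone C8 and clone D, 7 of the 19 Hox sites were lower and 5 higher in C8 by at least 10 points, against 28.5% and 28.1% of all regions. The widest difference was at Hoxa site 2, where clone C8 minus clone D was −54.8 points, and the widest in the other direction was at Hoxb site 9, 35.0 points higher in clone C8. The smallest was at Hoxb site 4, where the clones were 3.14 points apart. At Hoxb site 1, the site with the widest fall in clone D, the clones were 24.1 points apart.

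**Figure D4:**
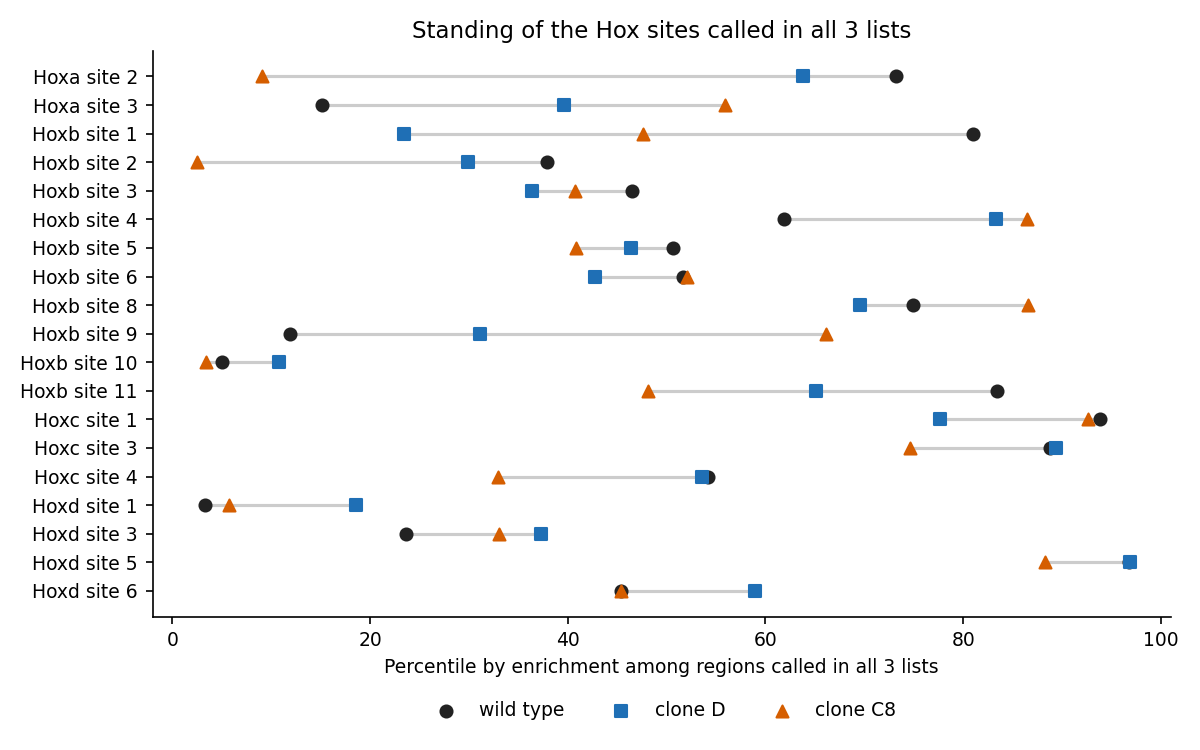
Percentile by enrichment of the 19 Hox sites called in all 3 lists, among the 23933 regions called in all 3 lists (x axis, 100 is the strongest), with a symbol for each list and a grey line over the range. Hoxa site 2 and Hoxb site 1 have wild type highest, Hoxa site 3 and Hoxb site 9 have wild type lowest, and Hoxd site 5 lies between 88.2 and 96.9.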

How the data were processed

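The labels give 6 samples: CTCF ChIP-seq and input from wild-type G1E-ER4 cells and from the BRD2-null clones D and C8. Per the submitters' processing notes, bcl2fastq 1.8.4, Bowtie 1.0.0 and build mm9 were used; caller, settings and any use of inputs in peak calling: not given in the sources used here. For each ChIP library the authors deposited a separate list (libraries were not pooled), with a fold enrichment (a ratio whose denominator is not given), a −log10 p (lowest value 5) and a false discovery rate per peak. The deposited rate was read as a fraction on the scale of a q-value. All 3 are the authors' own values, and each was used within its list alone.

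Starts were taken as counted from 0, after the deposited layout, and are printed counted from 1. Sites are connected sets of peaks overlapping by at least 1 bp. A peak missing from a list was not called, and is not a site shown to be unbound. All 24 sites are named. Depth is unknown, so no precision can be given for an enrichment, and no p-value was computed because the wild type has 1 library. The members, windows and lists were chosen with earlier results of these data known. The alternatives were other overlaps, thresholds, flank widths and rankings, and each clone left out. Calculations used Python 3.11.15, pandas 2.3.3, numpy 2.4.6, SciPy 1.17.1 and matplotlib 3.10.9. On simulated data, 3000 of 3000 regions were placed in their class, and bedtools 2.31.1 gave the same overlap count in 6 of 6 pairs of lists. The simulated regions were set well apart, so this checks the code only, and adjacent or bridging peaks were not tried.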

Additional observations from a re-analysis of the deposited data

How the results depend on the processing

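Counts and densities were held to a factor of 1.5, shares to the exact 95% interval of the main value, and median percentiles to the SD between the clones. The alternatives gave 218 values, of which 198 kept to those limits and 20 did not. The site counts and the shares of wild-type Hox peaks kept to those limits under each alternative run, and the sites numbered 22 to 24. With all 3 lists, those called in every list numbered 13 to 19. They were 13 of 22 at a −log10 p of at least 10 and 15 of 23 in the upper 75% of each list, against 19 of 24 in the main setting. The shares over all regions and in the flanks were not recomputed under these filters. Without clone D or without clone C8 there were 24 sites, of which 20 to 21 were in all remaining lists, and 87.0 to 91.3% of wild-type Hox peaks were overlapped. The median percentile of wild-type Hox peaks was 60.7 by −log10 p and 60.3 with lists of equal length by enrichment, and that of clone C8 was 58.3 and 53.6; the cause was not tested, beyond the loss of weak peaks that equal lengths bring. The other 16 values that moved were densities of single windows or flanks. No paired analysis was possible because no result comes from a test and the wild type has 1 library. Unknown depth limits every count, because a shallower library calls fewer weak sites.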
